A study of Taeniopygia guttata with 46 samples.

Results

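The response of the zebra finch forebrain to heat was measured as the difference in transcript levels between birds held at an air temperature of 43 °C and birds held at 35 °C. Both groups were adult male Taeniopygia guttata, and each had spent 5 h at its temperature. The comparison rests on 16 of the 46 libraries of the study, 8 from the posterior telencephalon at 43 °C and 8 from the same region at 35 °C, chosen by the temperature and tissue in the sample titles. The labels place 43 °C above and 35 °C within the thermoneutral zone. Each library came from 1 bird, and no bird was in both groups. The other libraries were 8 of the telencephalon at 27 °C, below the thermoneutral zone, and 22 of the testis. The 8 at 27 °C also entered the fit, through the filter, the scaling and the estimate of the spread. The brains had been frozen and divided into regions by hand before RNA extraction, so every level is a mean over all cells of the piece.

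Within the thermoneutral zone a resting bird holds its body temperature without spending extra energy on it. Above the zone it must lose heat actively, for which birds pant and evaporate water, and body temperature can climb when evaporation falls short. In animal cells generally, warming beyond the usual range induces heat shock proteins, the chaperones that keep other proteins folded. The caudal forebrain of songbirds contains auditory areas and parts of the circuit for song, and song is the courtship signal of males.

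The files give genes by Ensembl identifier without a symbol, and 0 of the 18618 identifiers could be paired with a name, so no function is attached to any gene here. Levels of heat shock genes could not be looked up, nor could markers of the forebrain and its cell types, and the labelled tissue was not checked against markers. In bulk tissue, fewer cells of a type and less RNA per cell cannot be told apart. Total counts ran from 10201598 to 15820118 per library in these 16, with a mean of 12.7 ± 2.19 M at 43 °C and 12.2 ± 1.54 M at 35 °C (SD, n = 8 each). Total counts, genes detected, the share of the 10 most counted genes and the distance between birds of a temperature did not differ beyond the spread of the birds (exact two-sided permutation over all 12870 groupings, adjusted p = 0.943 for all 4 measures). One library at 43 °C, of bird T153, stood apart. Its mean distance to the other birds at 43 °C was 0.537 log2 units (root mean square over genes), against 0.484 to 0.506 for the other 7. Several of the results below are also given without this bird.

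Few genes of the telencephalon differed detectably between 43 and 35 °C, and the differences were small. Of 13254 genes tested, 1 rose (0.00754% of genes) at an adjusted p under 0.05 in edgeR, and 0 (0%) fell. In DESeq2 the same comparison called 9 genes, 4 higher and 5 lower, or 0.126% of the 7160 genes to which it gave an adjusted p. Before adjustment, 1206 genes (9.10%) had a p under 0.05, where no effect would give about 5% on average. Genes move together across birds, so this share can depart from 5% without an effect, and its excess was not tested. In the fits without 1 bird the share ran from 7.22% to 10.7%. Of the 1206, 656 (4.95%) were higher and 550 (4.15%) lower at 43 °C. An unadjusted p under 0.01 was reached by 318 genes (2.40%) and one under 0.001 by 27 (0.204%), of which 10 were higher and 17 lower. At an adjusted p under 0.1 there were 3 genes, all higher, and under 0.2 there were 5, 3 higher and 2 lower. Without T153, 0 genes were called by edgeR and 963 (7.24%) reached an unadjusted p under 0.05, 488 higher and 475 lower.

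The gene that rose was ENSTGUG00000002065. Its level ran from 74.3 to 94.0 CPM (a count relative to the size of its library, scaled by TMM, the trimmed mean of M values) in the 8 birds at 43 °C, with a median of 83.9. At 35 °C it ran from 52.3 to 70.6 CPM with a median of 67.8. The groups did not overlap, since the lowest bird at 43 °C (T144) lay above the highest at 35 °C (T140). The lowest values at 35 °C were those of T154 and T158, with the other 6 birds between 66.4 and 70.6 CPM. Means were 83.1 ± 6.15 CPM at 43 °C and 65.5 ± 6.36 CPM at 35 °C (SD, n = 8 each), a 1.27-fold difference with a 95% interval of 1.17 to 1.38. The gene was picked by its p in this contrast, so its fold, interval and lack of overlap may overstate the difference. The log2 fold change was 0.34 ± 0.059 (SE), with an adjusted p of 0.0472 in edgeR. Birds at 27 °C, at 62.5 to 73.3 CPM, all lay below the lowest bird at 43 °C. The call passed in 9 of 27 alternative fits, over which the adjusted p ran from 7e-05 in DESeq2 to 0.224. The value of 0.224 came from edgeR on the 16 libraries at 43 and 35 °C alone, so the call depended on including the 27 °C birds. Among the 16 edgeR fits that left out 1 bird the call was kept without T135, T139, T140 or T144 and lost without any of the other 12. Its adjusted p was 0.141 without T153, and the highest of these 16 was 0.176 without T158. The log2 fold change itself lay between 0.30 and 0.36 in all 27 alternatives.

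The next gene by p that was higher, ENSTGUG00000005728, was among the abundant transcripts of this tissue, at rank 80 by mean level. It ran from 987 to 1314 CPM at 43 °C with a median of 1117, and from 835 to 1019 CPM at 35 °C with a median of 898. The groups overlapped in 1 bird at 43 °C (T144), while the other 7 exceeded every bird at 35 °C. Means were 1129 ± 106 and 918 ± 73.8 CPM (SD, n = 8 each), a 1.23-fold difference (95% interval 1.14 to 1.33) with an edgeR adjusted p of 0.0769, which missed the threshold. Bird T153 held the highest level, and without it the log2 fold change was 0.26 in place of 0.30, with an edgeR adjusted p of 0.198. Over 27 alternative fits its adjusted p ran from 0.000721 in DESeq2 to 0.301, and it passed the threshold in 5. At 27 °C the gene lay between 844 and 994 CPM.

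The 2 genes of smallest p among those lower at 43 °C also missed the adjusted threshold. ENSTGUG00000002421 ran from 75.7 to 96.1 CPM at 43 °C with a median of 83.1, and from 89.4 to 113 CPM at 35 °C with a median of 97.9. Of the 8 birds at 43 °C, 7 were below the lowest at 35 °C, and the exception was T138. The mean at 43 °C was 83.5 ± 6.15 CPM against 99.5 ± 7.16 CPM (SD, n = 8 each), which gave -0.25 ± 0.052 (SE) as the log2 fold change and 0.162 as the edgeR adjusted p.

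ENSTGUG00000010308 ran from 212 to 243 CPM at 43 °C with a median of 227, and from 237 to 285 CPM at 35 °C with a median of 267. Here T135 was the only bird at 43 °C within the range of the 35 °C birds. The 35 °C birds fell into a lower set of T137, T139 and T140, at 237 to 245 CPM, and a higher set of 5 at 259 to 285 CPM. The birds of the lower set were also the highest at 35 °C in ENSTGUG00000005728 (972 to 1019 CPM) and ENSTGUG00000002065 (69.4 to 70.6 CPM). In ENSTGUG00000002421, by contrast, T140 was the highest of the 35 °C birds, at 113 CPM. T137, T139 and T140 have the lowest bird numbers at 35 °C, and an effect of bird order was not tested. Means were 226 ± 10.4 and 263 ± 20.1 CPM (SD, n = 8 each), which gave -0.22 ± 0.046 (SE) as the log2 fold change and 0.162 as the edgeR adjusted p. In both of these genes the birds at 27 °C spanned nearly the range of the 35 °C birds, at 89.3 to 107 CPM and 242 to 288 CPM. None of the 4 genes changed direction in any of 27 alternative fits. The 4 were picked by their p in this contrast and the fits reuse the same birds, so this outcome was largely set by the choice.

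**Figure D1:**
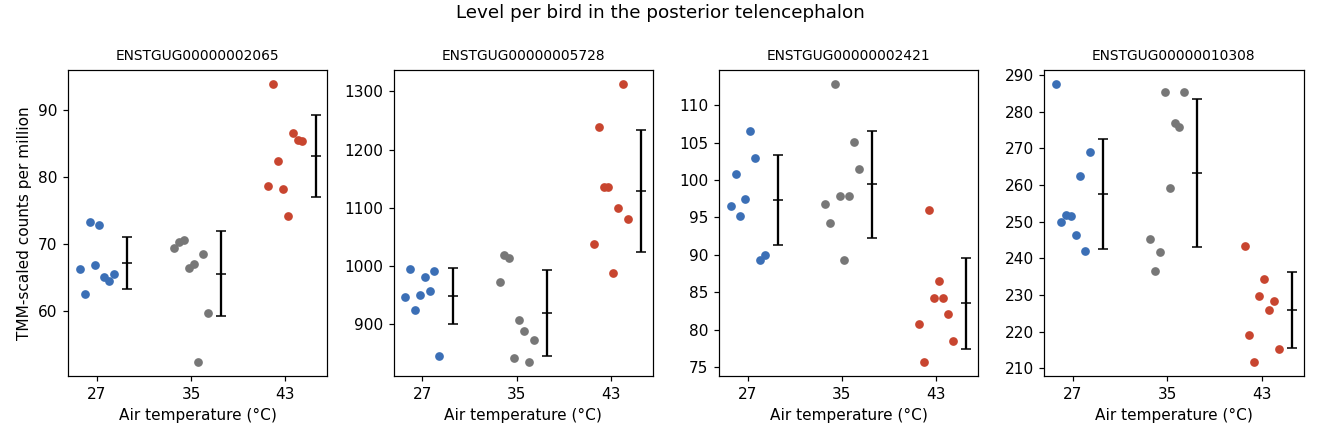
Level of 4 genes in each telencephalon bird (TMM-scaled CPM, linear axes that do not start at 0) at 27, 35 and 43 °C. Points are birds and the bars beside them are the mean ± SD of 8. In the first panel all birds at 43 °C lie above 74 CPM and all others below it, and in the other panels 1 bird at 43 °C lies within the range at 35 °C.

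Relative to the TMM scaling, most of the transcriptome lay close to no change. The median log2 fold change over all genes was -0.0023, and the central 95% of genes lay between -0.43 and 0.38. TMM sets the typical gene near no change, so this median follows from the scaling and cannot show whether all genes shifted together. The median size of a fitted change, in either direction, was 1.06-fold over all genes and 1.17-fold over the 1206 genes at an unadjusted p under 0.05 (quartiles 1.11 and 1.28). In log2 units the median size over all genes was 0.085, and the median standard error was 0.10. The fitted sizes therefore include sampling error. Of the 1206, lower genes had a median of 1.18-fold and higher ones 1.16-fold. Among the 1206, a change of at least 1.5-fold was found in 74 lower and 41 higher genes, and one of at least 2-fold in 15 lower and 8 higher. The largest were 5.95-fold lower, in a gene of 1 to 10 CPM, and 3.75-fold higher, in a gene under 1 CPM. This difference in size went with a difference in level, since the lower genes had a median level of 27.6 CPM and the higher ones 53.1 CPM, where all tested genes had 22.8 CPM. A gene with a larger standard error needs a larger change to reach this p, so sizes among the 1206 follow in part from precision. Their median was 1.39-fold at 1 to 10 CPM and 1.11-fold at 100 to 1000 CPM. The median standard errors of all genes at these levels were 0.20 and 0.057 log2 units.

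Large fold changes were confined almost entirely to weakly expressed genes. Of 13254 genes, 36 differed by at least 2-fold, 13 higher and 23 lower, and their median level was 1.59 CPM. Only 2 of the 36 had a mean of at least 10 CPM. In 6 of the 36, 1 bird held over 50% of the summed level of the higher group, and the median share of the leading bird was 31.3%. In 12 of the 36 every bird at 43 °C fell to one side of the 35 °C median, and in none did the groups separate fully. Over all 13254 tested genes every bird at 43 °C was above that median in 358 and none in 401, and 6 separated fully (0.0453%), and the 36 were picked by their change in this contrast. Among the 200 genes that differed by 1.5 to 2-fold, 84 higher and 116 lower, 8 had over 50% in 1 bird and 46 had all 8 birds at 43 °C on one side. The genes with smaller changes were better measured, with a median level of 28.3 CPM below 1.2-fold and a median share of the leading bird of 14.9%.

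**Figure D2:**
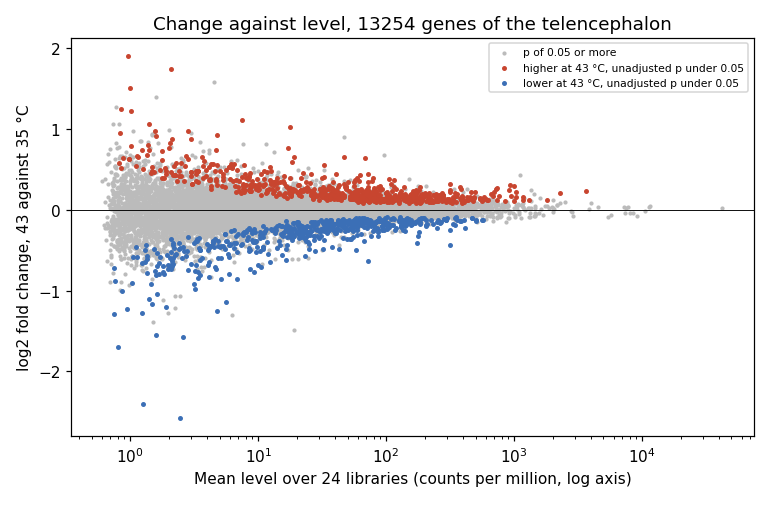
Fitted log2 fold change of each gene at 43 against 35 °C (y) against its mean level over the 24 telencephalon libraries (x, log axis). Coloured points lie at an unadjusted p under 0.05, and they narrow toward 0 with rising level, from a largest change of 5.95-fold at 1 to 10 CPM to one of 1.17-fold at 1000 CPM and over. A gene with a larger standard error needs a larger change to be coloured, so part of this narrowing follows from the cutoff.

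Among genes at an unadjusted p under 0.05, the split between directions differed with the level of the gene. This is a description without a test, since genes move together across the same birds. From 100 to 1000 CPM, 279 of 2109 genes (13.2%) reached an unadjusted p under 0.05, 192 higher and 87 lower, so that 68.8% of them were higher at 43 °C. At 1000 CPM and over there were 8 of 79, all higher. From 10 to 100 CPM the directions were nearly even, at 313 higher and 307 lower of 6699 genes (9.26%). From 1 to 10 CPM there were 134 higher and 150 lower of 3954 (7.18%), and below 1 CPM 9 higher and 6 lower of 413 (3.63%). Over all genes of a level, whatever their p, 51.5% had a positive fold change from 100 to 1000 CPM and 68.4% at 1000 CPM and over, with median log2 fold changes of 0.0025 and 0.025.

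The size of this excess of higher genes at high levels depends on how libraries are scaled. With total counts alone in place of TMM, the 100 to 1000 CPM genes split into 129 higher and 123 lower, and all genes at an unadjusted p under 0.05 into 480 higher and 681 lower. The difference between these levels remained, since the share higher was 37.1% from 10 to 100 CPM and 51.2% from 100 to 1000 CPM. It was 39.8% from 1 to 10 CPM, and at 1000 CPM and over 7 genes were higher and 1 lower. With size factors of the DESeq2 type the split at 100 to 1000 CPM was 197 and 80, and with upper-quartile scaling 192 and 97. In the 16 fits without 1 bird the share higher at this level ran from 61.6% (without T138) to 71.8% (without T147), and it was 69.3% without T153.

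**Figure D3:**
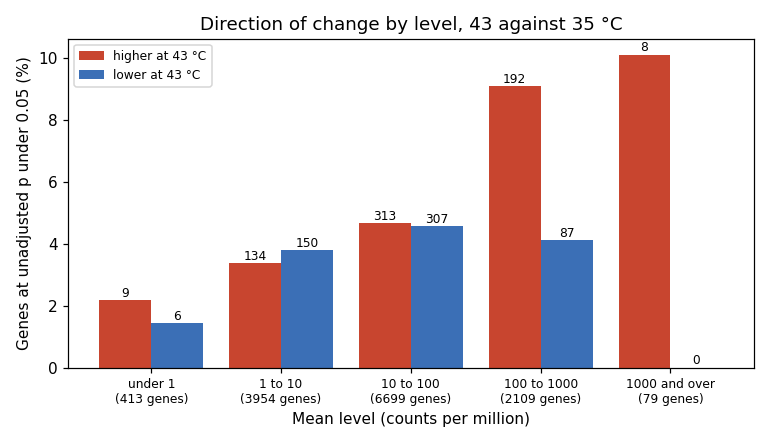
Share of tested genes at an unadjusted p under 0.05 (y, %) that were higher or lower at 43 against 35 °C, in 5 classes of mean level (x, CPM), with the number of genes above each bar. The bars for higher and lower genes are nearly equal from 1 to 100 CPM and part above 100 CPM. From 100 to 1000 CPM 192 genes were higher and 87 lower, and at 1000 CPM and over 8 were higher and 0 lower.

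Precision rose with level up to 1000 CPM. The standard error of a log2 fold change had a median of 0.20 from 1 to 10 CPM, 0.088 from 10 to 100 CPM and 0.057 from 100 to 1000 CPM, and was 0.063 at 1000 CPM and over. A change of 1.5-fold or more was outside the 95% interval for 6363 of the 6699 genes at 10 to 100 CPM and 99.1% at 100 to 1000 CPM and 96.2% at 1000 CPM and over, but for only 52.4% at 1 to 10 CPM. For a change of 1.2-fold the shares were 51.1% at 10 to 100 CPM, 83.8% at 100 to 1000 CPM, 72.2% at 1000 CPM and over and 2.33% at 1 to 10 CPM. For most genes of 1 to 10 CPM a 1.2-fold change thus lay within the interval.

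The birds at 43 °C varied among themselves about as much as those at 35 °C. The SD between birds on the log2 CPM scale was larger at 43 °C in 52.3% of genes, and from 10 to 100 CPM its median over genes was 0.174 at 43 °C and 0.171 at 35 °C. From 100 to 1000 CPM the medians were 0.121 and 0.114. The share of genes with the larger SD at 43 °C was 51.0% at 1 to 10 CPM, 55.1% at 100 to 1000 CPM and 58.2% at 1000 CPM and over. The mean distance between birds of different temperatures, 0.498 log2 units, was close to that between birds of the same temperature, 0.497.

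How many birds shared a direction was counted for every gene, as the number of the 8 birds at 43 °C above the median of the 35 °C birds. All 8 lay above it in 358 genes (2.70%) and none in 401 (3.03%), while 4 lay above it in 2436 (18.4%). The count declined evenly to both sides, with 2213 genes at 5 birds and 2264 at 3. The shares that birds without a temperature effect would give were not computed, so these counts alone do not show a shared direction. Complete separation was rare. In 6 genes (0.0453%) the ranges of the groups did not overlap, 2 of them higher (0.0151%) and 4 lower (0.0302%) at 43 °C. For a gene without an effect, full separation in either direction has a probability of 0.000155 over all groupings of 8 against 8. This probability is a fraction, whereas the shares of genes given here are percentages. Leaving out 1 bird makes separation easier by construction, and the probability above, for 8 against 8, does not apply to these counts. There were 16 such genes (0.121%) without T137 or T144, 14 (0.106%) without T156 and 12 (0.0905%) without T135 or T139. Without T147 there were 10 (0.0754%), and without any of the others 6 to 9 (0.0453 to 0.0679%). The 6 genes separated with all birds were not those with large changes: their folds ran from 1.11 to 1.44 and their mean levels from 6.88 to 169 CPM. One of them was ENSTGUG00000002065, and the other 5 had edgeR adjusted p of 0.0795 to 0.371.

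**Figure D4:**
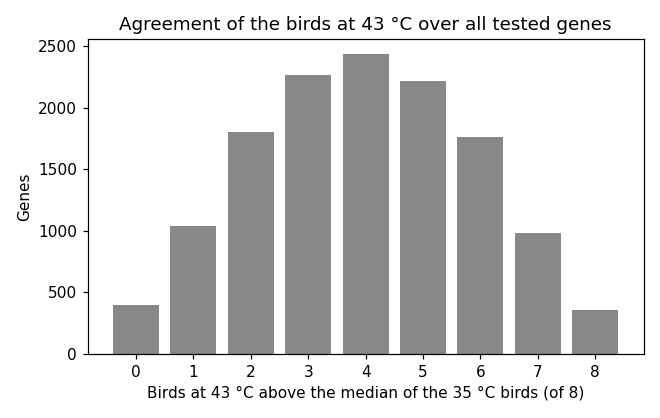
Number of genes (y) by how many of the 8 birds at 43 °C lay above the median of the 35 °C birds (x), over all tested genes. The counts peak at 2436 genes with 4 birds and fall to 401 with none and 358 with all 8.

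To ask how well a single bird followed the others, each of the 16 birds was left out in turn and the comparison was fitted again without it. The genes used reached an unadjusted p under 0.05 in that fit and also passed the filter with all birds, 956 to 1411 per bird. In each, the left-out bird was placed on the 43 °C or the 35 °C side of the midpoint between the 2 group means of the remaining birds. The log2 CPM values were scaled with the left-out bird included. On average the left-out birds lay on the side of their own temperature in 54.4% ± 10.9 of genes (SD, n = 16), and 10 of 16 exceeded 50%. In genes with a p over 0.5 the share was 50.5% ± 1.36 (SD, n = 16). These values are a description without a test, since the fits share birds and the genes move together.

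The birds differed widely from each other in this measure. At 43 °C, T153 lay on its own side in 67.6% of genes, T136 in 66.5%, T152 in 59.6% and T141 in 58.2%. The other 4 birds at 43 °C lay below 50%, T135 at 47.0%, T138 at 46.2%, T144 at 45.3% and T156 at 38.1%. At 35 °C, T157 was highest at 72.7%, followed by T147 at 63.2%, T158 at 60.1%, T154 at 58.1%, T146 at 57.6% and T140 at 53.1%. T137 and T139 at 35 °C lay on the 43 °C side more often than on their own, with 39.9% and 37.8% on the 35 °C side. With T140 they formed the lower set of the 35 °C birds in ENSTGUG00000010308. The mean was 53.5% ± 10.9 at 43 °C and 55.3% ± 11.6 at 35 °C (SD, n = 8 each), and it was similar for genes higher (55.3%) and lower (53.6%) at 43 °C. In the 100 genes of smallest p per fit, the mean was 50.3% ± 16.6, with 8 of 16 birds above 50%. Total counts of the 6 birds below 50% ran from 10202361 to 15820118 and those of the other 10 from 10201598 to 15174981.

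The 8 birds at 27 °C gave a further reading, because they enter the fit only through the filter, the scaling and the estimate of the spread. In the 1206 genes they lay on the 43 °C side of the midpoint in 26.7% (T151) to 46.4% (T155) of genes, with a mean of 37.4% ± 7.10 (SD, n = 8). All 8 were thus nearer to the 35 °C mean than to the 43 °C mean in most of these genes. The left-out birds at 35 °C, in the genes of their own fits, ran more widely, from 27.3% (T157) to 62.2% (T139) on the 43 °C side. For the birds at 27 °C the mean share was 37.0% in genes higher at 43 °C and 38.0% in lower ones, and 32.3% ± 9.59 in the 100 genes of smallest p. When 1 of the 16 birds was left out the mean ran from 34.8% to 39.6%, and 1 bird at 27 °C passed 50% without T137 (50.6%) and 1 without T154 (51.5%). The 8 values share the genes and the midpoint, so they are not independent of each other.

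**Figure D5:**
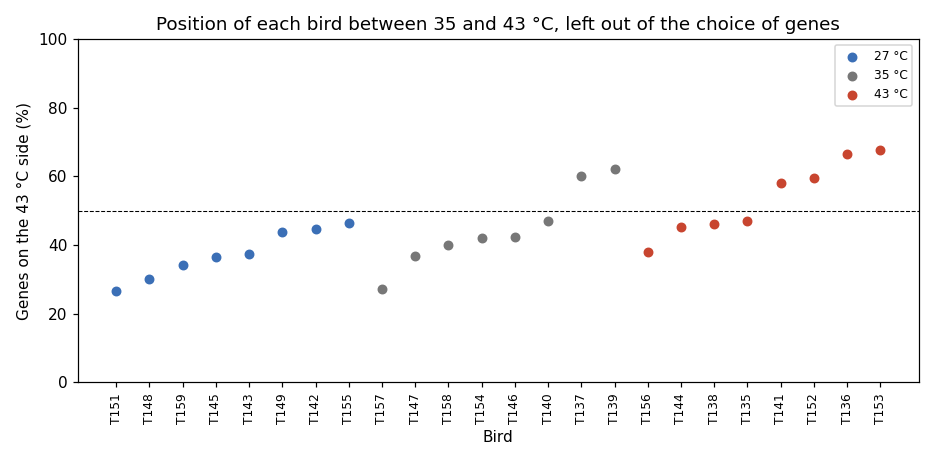
Share of genes (y, %) in which each telencephalon bird (x) lay on the 43 °C side of the midpoint between 35 and 43 °C. Birds at 35 and 43 °C were left out of the fit that chose the genes, and birds at 27 °C were placed on the 1206 genes of the full fit; the dashed line marks 50%. All birds at 27 °C lie below the line, 2 birds at 35 °C lie above it and 4 birds at 43 °C below it.

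The 1206 genes carried a modest share of all counts. Those higher at 43 °C held 8.31 to 9.66% of the counts at 43 °C, 7.45 to 8.41% at 35 °C and 7.30 to 8.20% at 27 °C. The highest share was that of T153, and the lowest at 43 °C were those of T156 and T144, which both lay below T137 at 35 °C. Genes lower at 43 °C held 2.75 to 3.07% at 43 °C, 3.18 to 3.57% at 35 °C and 3.13 to 3.51% at 27 °C. The differences between 43 and 35 °C follow from the choice of the genes by that contrast, whereas the birds at 27 °C took no part in the contrast.

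Bird T153 weighed more on the list than any other bird at 43 °C. It was the highest of the 8 in 210 of the 656 genes higher at 43 °C and the lowest in 24.4% of the lower ones, against 16.2% and 15.9% of all genes. For T136 these shares were 18.1% and 15.8%, against 11.7% and 12.6% of all genes. T144 and T156 were each the highest in 6.40% of the higher genes. Of the 1206 genes, 814 remained at an unadjusted p under 0.05 without T153, the fewest of any of the 16 fits without 1 bird, and 1038 without T139, the most. Extreme birds were not counted at 35 °C. Without T157, at 35 °C, 850 of the 1206 remained, and 960 genes in total reached an unadjusted p under 0.05 in edgeR, against 963 without T153.

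Testis libraries came from 22 of the 24 birds, 7 of them at 43 °C (all but T138) and 8 at 35 °C, and the change at 43 against 35 °C was compared between the tissues. ENSTGUG00000002065 ran from 118 to 162 CPM at 43 °C with a median of 143.3, and from 145.3 to 194 CPM at 35 °C with a median of 158.6, so the groups overlapped in the testis. Its testis log2 fold change was -0.20 ± 0.11 (SE; edgeR adjusted p = 0.651), and the telencephalon value lay 0.56 ± 0.12 log2 units (SE) above that of the testis, a difference that missed the threshold (edgeR adjusted p = 0.135). The fit for the tissue differences did not pair the tissues of a bird. With the bird number as a replicate block, this difference had an edgeR adjusted p of 0.315. ENSTGUG00000005728 had a testis log2 fold change of 0.064 ± 0.098 (SE; edgeR adjusted p = 0.890), and the difference of 0.25 ± 0.11 (SE) had an adjusted p of 0.450. For ENSTGUG00000002421 and ENSTGUG00000010308 the differences were -0.30 ± 0.15 and -0.47 ± 0.34 (SE), with edgeR adjusted p of 0.489 and 0.675, and the latter gene was weak in the testis, at a mean of 4.53 ± 3.09 CPM (SD, n = 7) at 43 °C. Over 12523 genes, 0 (0%) were called in edgeR for a difference between tissues. An unadjusted p under 0.05 was reached by 1249 (9.97%), where no difference would give about 5% on average. This excess was not tested either, since the genes move together. The 4 genes were chosen by their telencephalon change, which is 1 side of these differences.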

How the data were processed

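Per the labels' protocols, Trizol RNA went into TruSeq mRNA libraries that keep the strand. Tools named in the submitters' processing notes are featureCounts 1.6.4, HISAT2 2.1.0, Trimmomatic 0.36 and CASAVA. The sources used here give neither the genome build and annotation nor the strand setting, so a gene that overlaps or closely resembles another may hold some of its reads. The telencephalon table is of unnormalized whole-number counts, deposited by the authors with 1 column per library, and all columns were used. Testis birds have a paired-end and a single-end column of whole numbers, which were summed.

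Genes passed filterByExpr (minimum count 10, minimum total 15). Counts of all 24 telencephalon libraries were scaled by TMM and tested across all genes in edgeR 4.0.16 (R 4.3.3; robust quasi-likelihood F test, Benjamini-Hochberg adjustment, threshold 0.05). Standard errors were derived from the F statistic. Log2 CPM used a prior count of 2. The test was checked on simulated counts. DESeq2 1.42.0, limma 3.58.1 and sva 3.50.0 served as alternatives, and permutation tests were exact (SciPy 1.17.1). The tissue difference was tested in edgeR over both tissues, in the main fit without pairing the tissues of a bird. Same-numbered samples of the tissues come from 1 bird (22 birds), whose deviations from group means correlated at 0.149 on average across genes (0.0544 to 0.240).

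With no symbols, the named genes were the 2 of smallest p in each direction. The gene lists and markers could not be used. The members, lists and rules were chosen with earlier results of these data known. No 2 libraries of a temperature were duplicates: over 56 pairs the lowest chi-square per degree of freedom was 9.04, where counting noise gives about 1.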

Additional observations from a re-analysis of the deposited data

Results flagged for a closer look

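In 2 of 35 groups of birds examined, 1 value lay apart from the rest by Dixon's criterion, where chance gives about 1 in 20, or 1.75. The telencephalon library of T153 at 43 °C had a mean distance of 0.537 log2 units to the other birds of its temperature, against 0.484 to 0.506. ENSTGUG00000005728 was at 844 CPM in T159 at 27 °C and at 924 to 994 CPM in the other 7 birds at that temperature.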

How the results depend on the processing

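The count of 1 called gene became 0 with total counts alone as scaling, without a filter, in the 16 libraries alone, with log2 total counts or 3 surrogate variables as covariates, in limma voom with quality weights (1040 genes at an unadjusted p under 0.05) and in a test against a 1.2-fold change. It was 9 in DESeq2 and 0 to 3 in the fits without 1 bird. The 1206 genes at an unadjusted p under 0.05 stayed within 1.5 times in every alternative run (917 to 1418). The median log2 fold change was -0.016 with total counts alone and -0.0039 to 0.0040 without 1 bird. TMM scaling holds this median near no change, so its steadiness without 1 bird follows in part from the scaling. Genes without overlap numbered 6 to 16 (0.0453 to 0.121% of genes) without 1 bird, which makes separation easier by construction. ENSTGUG00000002421 (adjusted p 0.00506 to 0.440) and ENSTGUG00000010308 (0.00506 to 0.485) passed the threshold in 1 of 27 alternatives each, DESeq2. With the bird number as a replicate block, 0 genes differed between tissues, and the difference for ENSTGUG00000002065 was 0.56 with an edgeR adjusted p of 0.315; with the paired-end testis column alone, 1 gene was called. The cause of these changes was not tested. The counts of genes without overlap in the fits without 1 bird, and all values for the birds at 27 °C on the 43 °C side, were chosen after seeing the data. Intervals were wider for weakly expressed genes: at 1 to 10 CPM a 1.2-fold change lay outside the 95% interval in 2.33% of genes.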
